A study of Homo sapiens with 6 samples.

Results

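The comparison described here sets PA-1 cells transfected with RIPK2 against PA-1 cells transfected with the empty plasmid, gene by gene. PA-1 is a human ovarian teratocarcinoma line. The RIPK2 library came from cells that received 8 µg of a RIPK2 plasmid in pCDNA3.1 and were harvested after 48 h, and the Vector library came from cells that received 8 µg of pCDNA3.1 without an insert for the same 48 h. Of the other 4 libraries, RIPK3, RIPK1 and RIPK4 were made in the same way with those plasmids at 8 µg and 48 h, and the Wnt3a library came from cells given 200 ng of Wnt3a for 16 h. Each group holds 1 library, so no difference between libraries has a replicate behind it and none was tested. All 6 share 1 parental line, and no label says how many cultures went into a library.

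Levels were deposited as RPKM, reads scaled to transcript length and to library size. The members are the genes whose RPKM averaged at least 1 over the 6 libraries, which held for 11881 of the 20494 genes listed. With the transfected RIPK2 gene left out, 11880 remained. Differences are given as RIPK2 minus Vector on the log2(RPKM + 1) scale, so that 1 on this scale is called 2-fold, and the added 1 understates the change of low genes. Total reads worked back from the RPKM steps came to 19289668 in the RIPK2 library and 17248984 in the Vector library, and the other 4 lay between 18323982 and 19512255. Ratios of RPKM carry exact binomial intervals at 95% from recovered reads. The intervals describe counting error alone, because PCR duplicates could not be set aside without molecular identifiers and reads are not independent molecules.

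RIPK2 is a serine/threonine kinase with a caspase recruitment domain. In innate immune cells it binds the intracellular peptidoglycan sensors NOD1 and NOD2 through that domain, forms filaments, and is decorated with ubiquitin chains by XIAP and the linear ubiquitin ligase complex. Those chains recruit the TAK1 and IKK kinases, which start NF-kB and MAP kinase signalling. The NOD pathway is best known in macrophages and in epithelium.

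The line was checked against markers of an undifferentiated embryonal cell. SOX2, a core pluripotency factor, had 63.2 RPKM in the RIPK2 library and 149 RPKM in the Vector library. LIN28A, an RNA-binding protein of early embryonic cells, had 213 and 339 RPKM in RIPK2 and Vector, and PRDM14 had 36.1 and 56.8 RPKM in RIPK2 and Vector. SALL4 stood at 40.3 RPKM in RIPK2 and 37.7 RPKM in Vector, DNMT3B at 51.8 and 54.5 RPKM in RIPK2 and Vector, and POU5F1 at 13 RPKM in both. NANOG was near its limit of detection, at 0.148 RPKM in RIPK2 and 0.221 RPKM in Vector, and TDGF1 was listed at 0 in all 6 libraries. Other pluripotency genes were also at or near 0. ZFP42 and DPPA3 were listed at 0 in both RIPK2 and Vector. OTX2 had 0 RPKM in RIPK2 and 0.314 RPKM in Vector, and KLF4 had 0.113 and 0.018 RPKM in RIPK2 and Vector. NANOG, POU5F1 and TDGF1 each have processed copies elsewhere in the genome, and how the authors treated reads that match more than 1 place is not given in the sources used here. RPL7, a ribosomal protein gene with many copies, was listed at only 2.0 RPKM in RIPK2 and 2.13 RPKM in Vector. Whether copies lowered any of these values was not tested.

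The transfected gene itself was the highest in its own library. RIPK2 had 27.4 RPKM in the RIPK2 library, against 8.50 RPKM in the RIPK3, 10.8 RPKM in the RIPK1, 9.82 RPKM in the RIPK4, 9.38 RPKM in the Wnt3a and 11.8 RPKM in the Vector library. The RIPK2 library stood alone, and the other 5 lay close together. The ratio of RIPK2 to Vector was 2.31 (95% interval 2.09 to 2.56), from 1364 and 528 reads. Reads from the plasmid and from the chromosome cannot be told apart here, nor can a modest level in all cells and a high level in a transfected fraction. Against the same Vector library, RIPK3 and RIPK4 were close to absent without their own plasmid, with RIPK3 at 2 reads in RIPK2 and 0 reads in Vector, and RIPK4 at 0 reads in both. RIPK3 reached 61.4 RPKM and RIPK4 reached 17.9 RPKM in the libraries transfected with them, which is the sole reason that both genes entered the members. The RIPK1 gene had 12.7 RPKM in RIPK2 and 12.8 RPKM in Vector.

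Of the 11880 members, 189 were at least 2-fold higher in RIPK2 than in Vector, or 1.59% of those compared, and 83 were at least 2-fold lower, or 0.699%. At 4-fold the counts were 28 higher and 4 lower, and at 1.5-fold they were 898 higher and 774 lower. The whole distribution was centred near 0, with a median of -0.0086, 49.1% of members above Vector and 50.9% below it. The counts past these thresholds therefore leaned upward, most at 4-fold and least at 1.5-fold, while the distribution as a whole did not. The filter on level counts the RIPK2 library, which favours genes that are high in it. Some higher genes passed only through that library, such as KCNF1 and HKDC1, with means of 0.681 and 0.776 RPKM without it. At a mean RPKM of at least 5 the 2-fold counts were 102 higher and 62 lower. Members just past the threshold were FZD2 and CSRNP1, each 1.0 higher on the log2 scale, and SC5DL and SNORD18C, each at -1.01. Just short of it were SNORD33 and NDRG2 on the high side and NUCB2 and MGST1 on the low side.

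The share at least 2-fold higher was 2.58% of members with a mean RPKM of 1 to 5, and 1.37%, 1.02% and 0.443% in the bands of 5 to 20, 20 to 100 and 100 or more. The share at least 2-fold lower was 0.622%, 0.646%, 0.815% and 1.11% in the same bands. Protein-coding genes made up 11380 members, of which 147 were past 2-fold on the high side and 65 on the low side. Small RNAs, mostly small nucleolar RNAs, made up 173 members with 15 higher and 18 lower, and 137 pseudogenes had 23 higher and 0 lower. Under 20 reads on average over both libraries stood behind 13 of the 189 higher and 14 of the 83 lower members.

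**Figure D1:**
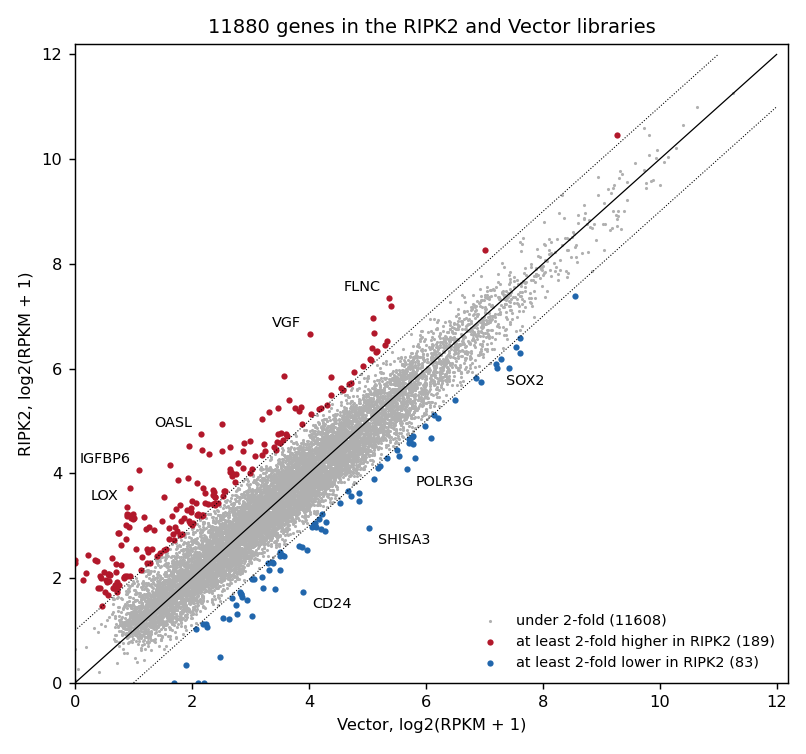
Each point is 1 member, with log2(RPKM + 1) in RIPK2 on the y axis and in Vector on the x axis, a solid line at equal levels and dotted lines at 2-fold. The 189 genes at least 2-fold higher outnumber the 83 at least 2-fold lower, and the labelled genes were picked by hand from those the text names.

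The difference also followed base composition. Across 11778 members with a known transcript GC content, the Spearman correlation of the difference with GC content was 0.663, a description across genes that share 1 pair of libraries. The median GC content was 57.0% for the genes at least 2-fold higher, 41.5% for those at least 2-fold lower and 48.3% over all members. Once the trend with GC content was taken out, 116 members lay past 2-fold on the high side and 53 on the low side, and of these 91 and 37 were among the original 189 and 83. Whether this trend came from library preparation or from the cells was not tested, and genes described below that came under 2-fold with the trend removed are given with that value.

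Among 40 genes of the RIPK2 and NOD pathway, 35 passed the filter on level. Of the 35, 2 were past 2-fold on the high side and 0 on the low side, beside 1.59% and 0.699% of all members. The 35 had a median difference of 0.05 against -0.0086 over all members. They include RIPK3 and RIPK4, which passed the filter only through the libraries transfected with them. That median is the value of RIPK3 itself, which rests on very few reads in RIPK2 and Vector. The 2 higher genes were SLC15A3 and IKBKE. SLC15A3, an endolysosomal transporter that brings NOD ligands such as muramyl dipeptide into the cytosol, had 15.9 RPKM in RIPK2, 17.6 in RIPK3, 3.20 in RIPK1, 9.72 in RIPK4, 7.12 in Wnt3a and 5.26 in Vector. High levels were shared by RIPK2 and RIPK3, RIPK1 was the lowest, and the RIPK2 to Vector ratio was 3.01 (2.56 to 3.56). IKBKE, the IKK-related kinase that phosphorylates IRF3, had 3.45 RPKM in RIPK2, 3.44 in RIPK3, 0.906 in RIPK1, 2.28 in RIPK4, 2.02 in Wnt3a and 1.17 in Vector, a RIPK2 to Vector ratio of 2.94 (2.25 to 3.89). With the GC trend removed SLC15A3 remained past 2-fold at 1.32 and IKBKE came to 0.74.

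The sensors and core kinases of the pathway lay near 0. NOD1, the sensor of peptidoglycan from Gram-negative bacteria, had 4.21 RPKM in RIPK2 and 4.15 RPKM in Vector. NOD2, the sensor of muramyl dipeptide, had 1 read in RIPK2 and 2 reads in Vector and did not pass the filter. MAP3K7, which encodes TAK1, had 25.8 and 27.1 RPKM in RIPK2 and Vector, and IKBKB, which encodes IKK beta, had 9.16 and 8.75 RPKM in RIPK2 and Vector. The ubiquitin ligase XIAP had 6.67 RPKM in RIPK2 and 7.02 RPKM in Vector. The 3 subunits of the linear ubiquitin ligase complex were all above Vector but under 2-fold, with RBCK1 at 0.74, SHARPIN at 0.55 and RNF31 at 0.52 on the log2 scale. At the other end of the list stood TRAF5, an adaptor ligase, with -0.61, TBK1, the kinase related to IKBKE, with -0.51, and CHUK, which encodes IKK alpha, with -0.34. These differences were smaller with the GC trend removed. RBCK1 then came to 0.36, SHARPIN to 0.15 and RNF31 to 0.18. TRAF5 came to -0.41 and TBK1 to -0.21, and CHUK changed sign to 0.085.

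**Figure D2:**
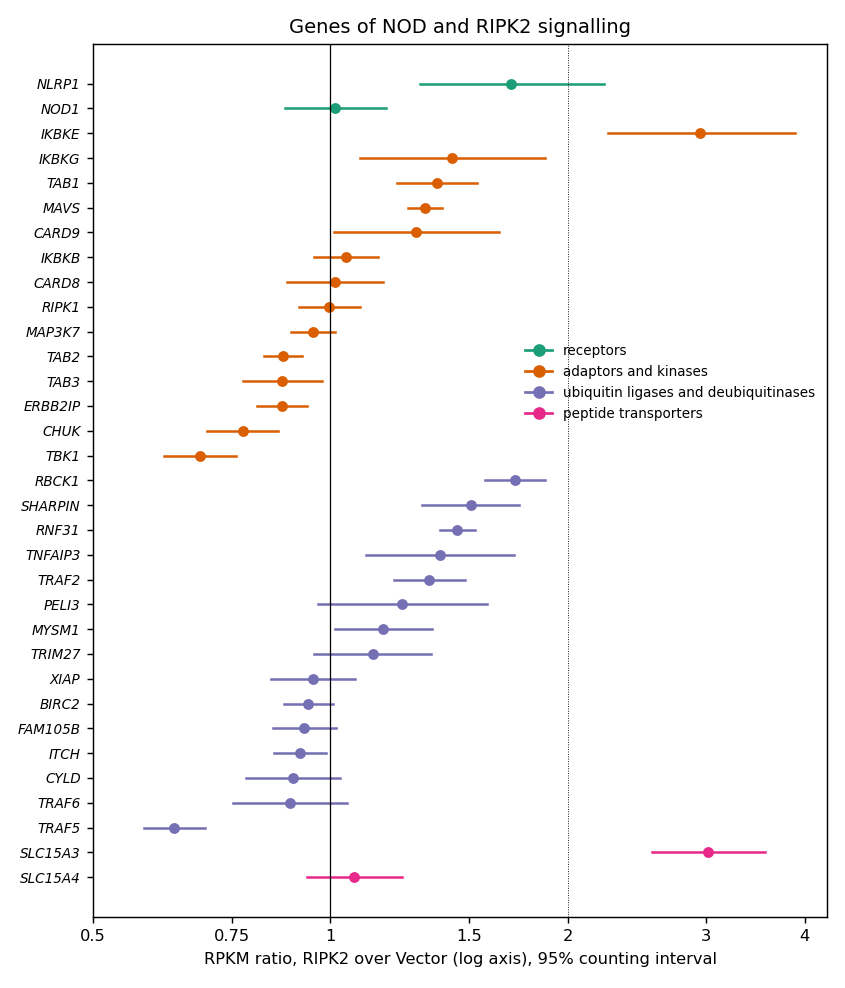
Points are RPKM ratios of RIPK2 to Vector on a log axis for members of the NOD pathway list with at least 20 reads over both libraries, and bars are exact 95% counting intervals. SLC15A3 at 3.01 and IKBKE at 2.94 lie apart from NOD1, IKBKB and XIAP near 1, and TRAF5 and TBK1 are at the low end.

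NF-kB genes were above Vector more often than below it, mostly under 2-fold. Over all members 49.1% were above Vector. Of 10 measured subunits and inhibitors 8 were above Vector, with a median of 0.30 and none past 2-fold. RELB, the NF-kB subunit of the noncanonical arm, had 5.48 RPKM in RIPK2 and 2.82 RPKM in Vector, NFKB2 had 13.6 and 8.51 RPKM in RIPK2 and Vector, and NFKBIA, the inhibitor that NF-kB itself induces, had 12.7 and 8.11 RPKM in RIPK2 and Vector. Among 42 listed target genes, 24 passed the filter, 19 of them were above Vector, and the median was 0.59. With the GC trend removed that median came to 0.35, and the median of the subunits and inhibitors to 0.27. RELB then came from 0.76 to 0.36 on the log2 scale, NFKB2 from 0.61 to 0.27 and NFKBIA from 0.59 to 0.44.

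Of the 24 target genes 1 was at least 2-fold higher, where 1.59% of all members were. CCL5, a chemokine that attracts T cells and is induced by both NF-kB and interferon regulatory factors, had 7.77 RPKM in RIPK2, 8.50 in RIPK3, 0.251 in RIPK1, 2.89 in RIPK4, 1.23 in Wnt3a and 0.992 in Vector. RIPK2 and RIPK3 were high, RIPK4 was in between and the other 3 were low, and the RIPK2 to Vector ratio was 7.84 (4.98 to 13). The urokinase gene PLAU had 66.3 RPKM in RIPK2 and 34.8 RPKM in Vector, IL32 had 5.41 and 2.62 RPKM in RIPK2 and Vector, and ICAM1 had 15.8 and 10.1 RPKM in RIPK2 and Vector. SOD2, another textbook NF-kB target, stood lower, at 9.38 RPKM in RIPK2 and 14 RPKM in Vector.

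Most interferon-stimulated genes were above Vector. Of 61 listed genes 50 passed the filter, 47 were above Vector, 8 were at least 2-fold higher, none was at least 2-fold lower, and the median was 0.63. Over all members 49.1% were above Vector and 1.59% were at least 2-fold higher. The 8 genes were OASL, IFIT2, IFIT3, OAS3, IFI35, OAS2, UBA7 and CMPK2. CMPK2 passed the filter through the RIPK2 library, since its mean without that library was 0.948 RPKM. With the GC trend removed the median was 0.56, and 4 of the 8 stayed past 2-fold. OAS3 then came to 0.99, IFI35 to 0.78 and UBA7 to 0.73, and CMPK2 was just short at 0.996.

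OASL, an oligoadenylate synthetase-like protein that boosts RIG-I signalling, had 25.8 RPKM in RIPK2, 23.5 in RIPK3, 0.845 in RIPK1, 9.21 in RIPK4, 2.61 in Wnt3a and 3.47 in Vector. The top places went to RIPK2 and RIPK3 and the lowest to RIPK1, with Vector near the low end, and the RIPK2 to Vector ratio was 7.42 (6.08 to 9.14). IFIT2, which encodes an antiviral tetratricopeptide repeat protein, had 29.7 RPKM in RIPK2, 24.7 in RIPK3, 1.97 in RIPK1, 7.34 in RIPK4, 2.92 in Wnt3a and 4.68 in Vector, a RIPK2 to Vector ratio of 6.35 (5.6 to 7.21). Its relative IFIT3 had 41.0 RPKM in RIPK2, 47.5 in RIPK3, 2.78 in RIPK1, 10.4 in RIPK4, 2.97 in Wnt3a and 11.6 in Vector. The order was the same at both ends for these 3 genes, with RIPK2 and RIPK3 on top and RIPK1 at the bottom. OAS3, which makes the oligoadenylate that activates RNase L, had 79.6 RPKM in RIPK2, 91.1 in RIPK3, 4.85 in RIPK1, 53.4 in RIPK4, 28.3 in Wnt3a and 34.8 in Vector.

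Not every interferon gene was higher. B2M, the light chain of class I molecules, had 168 and 173 RPKM in RIPK2 and Vector, and EIF2AK2, the double-stranded RNA kinase PKR, had 48.1 and 44.3 RPKM in RIPK2 and Vector. Many of these genes were already abundant in the Vector library, among them ISG15 with 1547 RPKM in RIPK2 and 849 RPKM in Vector, and IFI6 with 1405 and 896 RPKM in RIPK2 and Vector. Over the 50 genes the median RPKM was 33.0 in RIPK2, 34.8 in RIPK3, 5.2 in RIPK1, 18.9 in RIPK4, 7.40 in Wnt3a and 20.5 in Vector. RIPK1 was the lowest library for 41 of the 50, and RIPK2 was the highest for 7, a count looked up after these values were seen. The size of the difference thus depends on the Vector library being the comparator, and a single Vector library cannot show how far its interferon-stimulated genes vary from culture to culture.

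The 250 bases upstream of the start of 4 higher genes are shown here, taken from RefSeq on GRCh38.p14, because these windows hold a motif searched for on both strands. They were chosen for holding one, and are not typical of the higher genes. Capitals in IFIT3, OAS3 and IL29 mark GAAA, any 2 bases and GAAA on either strand, a core of the interferon-stimulated response element, and TGACGTCA, the cAMP response element, in VGF. The windows are IFIT3 at chr10:89327747-89327996, OAS3 at chr12:112938224-112938473 and IL29 at chr19:39296157-39296406, all on the plus strand, and VGF at chr7:101165570-101165819 on the minus strand. IFIT3 and OAS3 hold 2 matches each, and the 2 in IL29 overlap.
IFIT3: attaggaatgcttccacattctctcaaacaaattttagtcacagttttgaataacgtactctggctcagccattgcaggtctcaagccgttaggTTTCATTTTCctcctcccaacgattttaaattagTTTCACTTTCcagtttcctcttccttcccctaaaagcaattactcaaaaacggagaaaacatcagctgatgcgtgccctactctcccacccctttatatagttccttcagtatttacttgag
OAS3: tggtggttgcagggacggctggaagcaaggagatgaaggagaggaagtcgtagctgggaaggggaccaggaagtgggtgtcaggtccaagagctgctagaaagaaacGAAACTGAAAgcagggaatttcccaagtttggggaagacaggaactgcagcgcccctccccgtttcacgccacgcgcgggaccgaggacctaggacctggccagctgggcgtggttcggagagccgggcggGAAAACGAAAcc
IL29: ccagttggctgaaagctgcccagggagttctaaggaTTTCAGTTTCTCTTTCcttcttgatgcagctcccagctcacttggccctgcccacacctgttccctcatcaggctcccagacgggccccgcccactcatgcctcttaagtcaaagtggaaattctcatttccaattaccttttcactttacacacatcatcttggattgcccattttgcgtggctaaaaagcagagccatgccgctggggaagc
VGF: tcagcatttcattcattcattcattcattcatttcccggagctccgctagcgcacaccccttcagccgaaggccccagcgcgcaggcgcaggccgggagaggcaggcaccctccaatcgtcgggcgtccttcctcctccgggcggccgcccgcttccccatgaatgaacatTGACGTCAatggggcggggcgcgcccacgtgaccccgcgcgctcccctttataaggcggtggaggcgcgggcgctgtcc

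Counted over promoters, the response element core occurred in 3.07% of 27305 RefSeq windows, 2.21% of 9569 windows of members, 4 of 101 windows of the genes at least 2-fold higher (3.96%), and 18 of 37 windows of the interferon-stimulated genes (48.6%). IFIT2, OASL, OAS2 and CCL5 were not in the promoter table. For the other 4 motifs searched, the windows of members and of the higher genes gave the following shares. TGACGTCA occurred in 3.07% of members and 2.97% of higher genes, the NF-kB core (GGG, any 5 bases, CC) in 70.2% and 75.2%, and the AP-1 site TGANTCA in 3.64% and 10.9%, or 11 of 101 higher genes. A pair of SMAD boxes, GTCTAGAC, was in 0 of the 101. The windows of LOX and IGFBP6 were looked up for the AP-1 site and that of FOSL2 for the cAMP response element, and none held it.

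Interferon ligands were low in reads. IL29, which encodes interferon lambda 1, had 3.27 RPKM in RIPK2, 1.90 in RIPK3, 0.240 in RIPK1, 0.447 in RIPK4, 0.189 in Wnt3a and 0.136 in Vector. RIPK2 and RIPK3 stood above the rest, and 54 reads in RIPK2 against 2 in Vector gave a ratio of 24.1 with a wide interval of 6.37 to 204. IFNB1, the interferon beta gene, did not pass the filter and had 29 reads in RIPK2, 17 in RIPK3 and 4 in Vector. IL28A, interferon lambda 2, had 10 reads in RIPK2 and 0 in Vector. Of the 8 receptor chains listed, 6 were below Vector, none by 2-fold, where 50.9% of all members were below it.

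**Figure D3:**
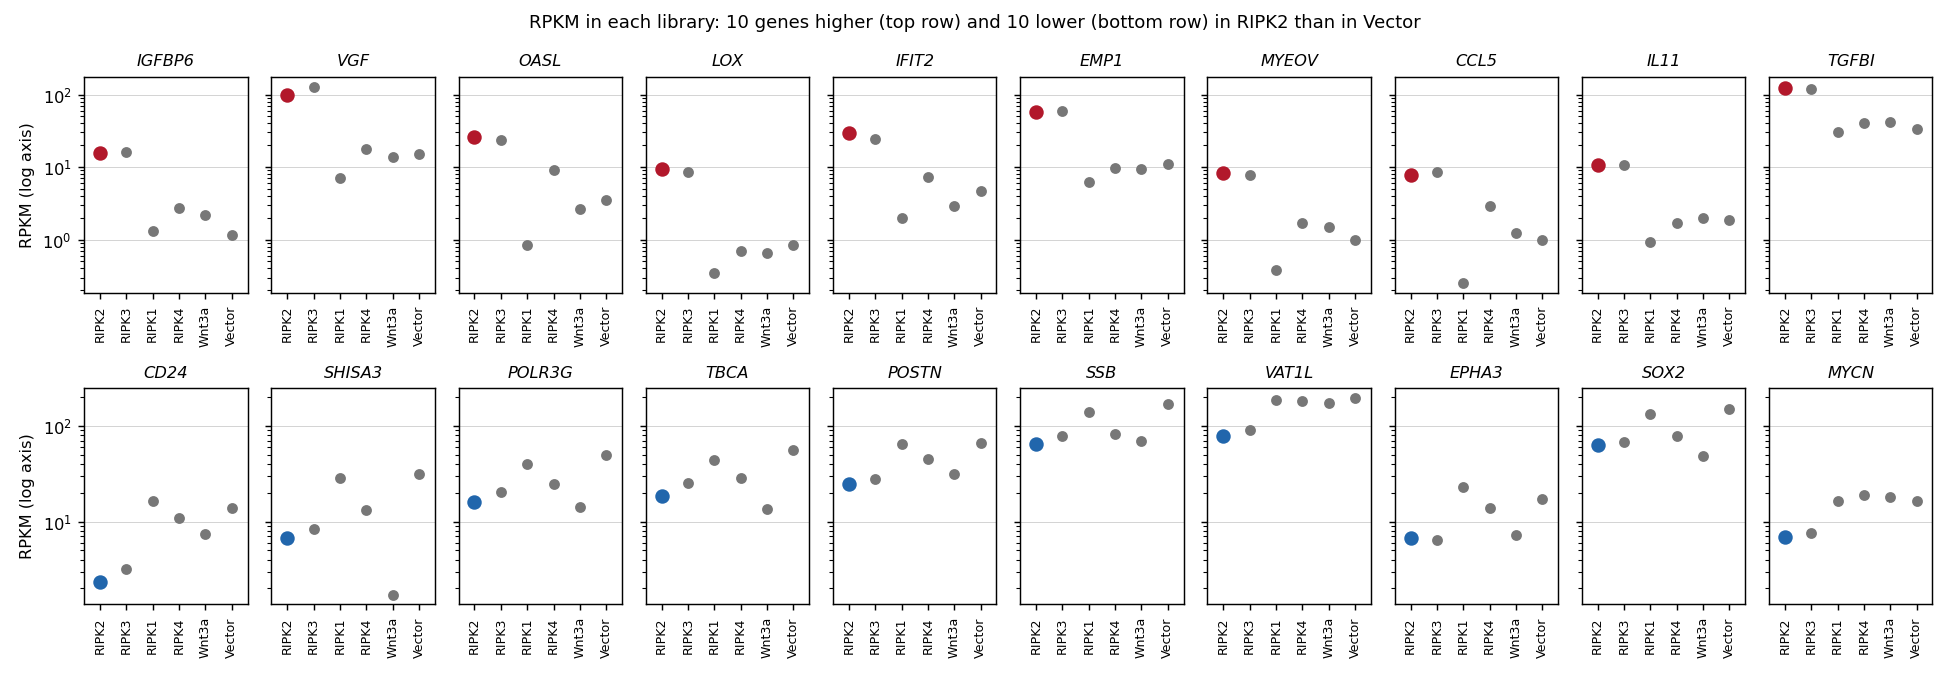
Points give the RPKM (log axis) of 20 genes, 10 higher and 10 lower in RIPK2, in each of the 6 libraries, picked by hand from the genes the text names. For most of the higher genes the RIPK2 and RIPK3 points lie together above the others, as for LOX at 9.26 and 8.68 RPKM against 0.849 RPKM in Vector.

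Cytokines of the IL-6 type were also higher. IL11, a cytokine linked to fibrosis and placental development, had 10.7 RPKM in RIPK2, 10.7 in RIPK3, 0.914 in RIPK1, 1.72 in RIPK4, 2.0 in Wnt3a and 1.87 in Vector. RIPK2 and RIPK3 were level and far above the other 4, and the RIPK2 to Vector ratio was 5.69 (4.46 to 7.35). CLCF1, a ligand of the CNTF receptor, had 4.66 RPKM in RIPK2 and 1.38 RPKM in Vector, and its difference was 0.97 with the GC trend removed. LIF was nearer to Vector, at 2.54 RPKM in RIPK2 and 1.48 RPKM in Vector. Of 44 interleukins and IL-6 family ligands listed, 6 passed the filter, IL29 among them through the RIPK2 library, since its mean over the other 5 libraries was 0.582 RPKM. That family was 1 of 24 assembled after the values had been seen.

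Genes of TGF-beta and BMP signalling made up the next group. Of 27 target genes 6 were at least 2-fold higher, where the share over all members was 1.59%, and 21 were above Vector, with a median of 0.58. With the GC trend removed the median was 0.41 and 5 of the 6 stayed past 2-fold, COL1A1 being the exception at 0.97. TGFBI, a secreted matrix protein named for its induction by TGF-beta, had 124 RPKM in RIPK2, 120 in RIPK3, 30.1 in RIPK1, 39.9 in RIPK4, 41.5 in Wnt3a and 33.4 in Vector. RIPK2 and RIPK3 again stood apart from 4 libraries of similar level. BHLHE40, a circadian repressor, had 31.7 RPKM in RIPK2 and 8.20 RPKM in Vector. ID3, a BMP target that blocks basic helix-loop-helix factors, had 37.2 RPKM in RIPK2 and 10.1 RPKM in Vector, whereas its relative ID2 had 19.6 and 20.5 RPKM in RIPK2 and Vector, and ID4 had 37.9 and 54.8 RPKM in RIPK2 and Vector.

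The ligand gene TGFB1 had 102 RPKM in RIPK2, 104 in RIPK3, 24.7 in RIPK1, 39.3 in RIPK4, 35.9 in Wnt3a and 33.5 in Vector, a RIPK2 to Vector ratio of 3.04 (2.86 to 3.24). Its level in RIPK2 and RIPK3 exceeded that in each of the other 4 libraries. The co-receptor ENG had 11.8 RPKM in RIPK2 and 4.14 RPKM in Vector, and GDF15, a stress-induced member of the family, had 23.2 RPKM in RIPK2 and 9.90 RPKM in Vector. With the GC trend removed ENG came to 0.96 and GDF15 to 0.80. Among the members on the other side, BMP4 had 5.32 RPKM in RIPK2 and 9.16 RPKM in Vector, and CTGF had 50.8 RPKM in RIPK2 and 91.1 RPKM in Vector. CTGF is a YAP target as well, and the list of 31 YAP and SRF targets had a median of 0.01 with 1 gene past 2-fold and none with the GC trend removed.

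Extracellular matrix genes were above Vector in 39 of 47 cases, 6 by at least 2-fold, and 2 were at least 2-fold lower. The shares over all members were 49.1%, 1.59% and 0.699%. Of the 6, 3 stayed past 2-fold with the GC trend removed, as did both lower genes. All 10 measured collagen genes of that list were above Vector, while over all 19 measured collagen chains 16 were above it and 3 below, namely COL4A5, COL4A6 and COL9A3. LOX, the lysyl oxidase that crosslinks collagen and elastin, had 9.26 RPKM in RIPK2, 8.68 in RIPK3, 0.345 in RIPK1, 0.708 in RIPK4, 0.648 in Wnt3a and 0.849 in Vector. No library but RIPK2 and RIPK3 was above 1 RPKM, and the RIPK2 to Vector ratio was 10.9 (8.39 to 14.4). COL1A1, the type I collagen chain that came under 2-fold with the GC trend removed, had 82.6 and 32.6 RPKM in RIPK2 and Vector, and TNC, which encodes tenascin C, had 37.1 and 12.6 RPKM in RIPK2 and Vector. The other lysyl oxidases were nearer to Vector, with LOXL2 at 98.1 RPKM in RIPK2 and 73.5 RPKM in Vector and LOXL1 at 19.8 and 14.2 RPKM in RIPK2 and Vector.

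The 2 lower matrix genes were POSTN and NID2. POSTN, which encodes periostin, had 24.4 RPKM in RIPK2, 27.5 in RIPK3, 64.9 in RIPK1, 44.9 in RIPK4, 31.3 in Wnt3a and 66.7 in Vector. RIPK2 and RIPK3 were low, with Wnt3a close to them, and RIPK1 stood level with Vector. NID2, a basement membrane linker, had 3.88 RPKM in RIPK2 and 8.89 RPKM in Vector. Around the matrix, the laminin-binding integrin gene ITGA3 had 56.5 RPKM in RIPK2 and 19.8 RPKM in Vector, and the actin crosslinker FLNC had 161 RPKM in RIPK2 and 40.6 RPKM in Vector. None of 12 measured genes of epithelial-mesenchymal transition was past 2-fold, and the highest of them, SNAI1, had 7.30 RPKM in RIPK2 and 3.81 RPKM in Vector.

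The largest difference on the log2 scale among the 11880, 2.97, belonged to IGFBP6, a binding protein with a preference for IGF2. It had 15.8 RPKM in RIPK2, 16.1 in RIPK3, 1.33 in RIPK1, 2.77 in RIPK4, 2.18 in Wnt3a and 1.14 in Vector. RIPK2 and RIPK3 were level, the other 4 were low, and the RIPK2 to Vector ratio was 13.8 (8.70 to 23.3) from 294 and 19 reads. Its relatives differed less, with IGFBP7 at 41.4 RPKM in RIPK2 and 23.8 RPKM in Vector, IGFBP4 at 26.7 and 17.3 RPKM in RIPK2 and Vector, and IGFBP2 at 83.0 and 78.0 RPKM in RIPK2 and Vector.

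Among protein-coding genes VGF came next, a granin-like neuropeptide precursor whose upstream window is printed above. VGF had 99.9 RPKM in RIPK2, 127 in RIPK3, 7.11 in RIPK1, 17.6 in RIPK4, 13.7 in Wnt3a and 15.2 in Vector, a RIPK2 to Vector ratio of 6.55 (6.04 to 7.11). GAL, the galanin precursor, had 35.2 RPKM in RIPK2, 39.6 in RIPK3 and 8.95 RPKM in Vector. Not all genes of secretory granules shared that direction, since 3 of the 8 measured were above Vector, VGF and GAL among them, and 5 below. NTS, the neurotensin precursor, had 306 RPKM in RIPK2 and 528 RPKM in Vector, the processing enzyme CPE had 55.0 and 81.4 RPKM in RIPK2 and Vector, and the list of 8 measured genes had a median of -0.33.

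Further genes among the 20 largest on the high side were EMP1, an epithelial membrane protein of the PMP22 family, at 56.7 RPKM in RIPK2 and 10.9 RPKM in Vector, and MYEOV at 8.38 RPKM in RIPK2 and 0.985 RPKM in Vector. SOX14, a factor of the SOX family, had 14 RPKM in RIPK2 and 2.83 RPKM in Vector. MARCH4, a membrane-bound ubiquitin ligase, had 7.11 RPKM in RIPK2 and 0.834 RPKM in Vector. In each of these 4 the RIPK3 library was also high, between 6.81 and 59.6 RPKM.

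MAP kinase output genes were mostly above Vector. Of 19 measured ERK feedback and target genes 15 were above Vector and 2 past 2-fold, beside 49.1% and 1.59% of all members. The 2 were UPP1 at 15.3 RPKM in RIPK2 and 5.36 RPKM in Vector and PHLDA2 at 35.3 and 13.2 RPKM in RIPK2 and Vector, and with the GC trend removed PHLDA2 came just short of 2-fold at 0.998. The dual-specificity phosphatase gene DUSP6 had 99.7 RPKM in RIPK2 and 74.2 RPKM in Vector, and SPRY4 had 48.2 and 25.7 RPKM in RIPK2 and Vector. The list's median was 0.42, or 0.45 with the GC trend removed. Of 18 AP-1 and immediate early genes 16 were above Vector, with a median of 0.31, or 0.16 with the GC trend removed. FOSL2, a FOS family member, was past 2-fold with 9.03 RPKM in RIPK2 and 2.32 RPKM in Vector. FOS itself had 1.62 and 1.5 RPKM in RIPK2 and Vector, and EGR1 had 22 and 29.5 RPKM in RIPK2 and Vector.

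Stress-response genes split by branch. Of 17 genes of the ATF4 branch 15 were above Vector, beside 49.1% of all members, with a median of 0.59. TRIB3, a pseudokinase induced by ATF4, had 6.83 RPKM in RIPK2 and 2.28 RPKM in Vector, or 0.91 on the log2 scale with the GC trend removed. The 14 chaperone and degradation genes of the endoplasmic reticulum had a median of -0.03, with HSPA5 at 222 RPKM in RIPK2 and 234 RPKM in Vector. Genes of cell death had a median of 0.17 with none past 2-fold, and the initiator caspase CASP8 had 7.77 RPKM in both libraries. The p53 targets had a median of 0.15, with only GDF15 of the 25 past 2-fold and CDKN1A at 18.8 RPKM in RIPK2 and 13.9 RPKM in Vector.

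**Figure D4:**
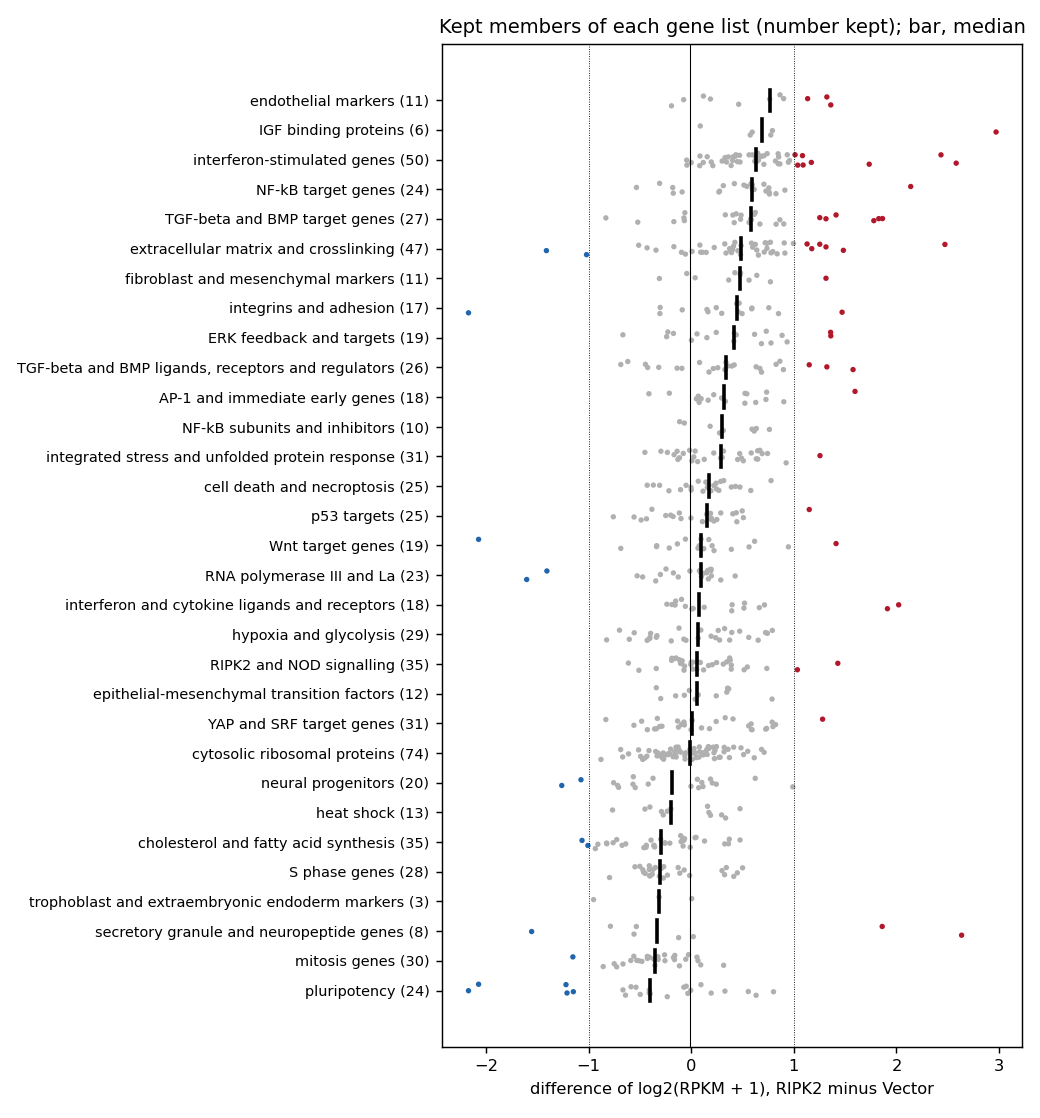
For each gene list, points are the differences of log2(RPKM + 1), RIPK2 minus Vector, of its members past the filter on level, and the bar is their median, for lists with at least 3 such members. Medians run from 0.76 for endothelial markers and 0.63 for interferon-stimulated genes to -0.40 for pluripotency genes.

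Several genes of the undifferentiated state were lower. Of 24 measured pluripotency genes 18 were below Vector, 5 of them by at least 2-fold, and none was at least 2-fold higher, where the shares over all members were 50.9%, 0.699% and 1.59%. All 5 stayed past 2-fold with the GC trend removed. The list was chosen with earlier results of these data known, which limits such counts. CD24 and SHISA3 entered it as other markers, and among its 8 measured factors 3 were at least 2-fold lower. CD24, a glycosylphosphatidylinositol-anchored surface protein, had 2.33 RPKM in RIPK2, 3.22 in RIPK3, 16.4 in RIPK1, 10.9 in RIPK4, 7.33 in Wnt3a and 14 in Vector. The lowest libraries were RIPK2 and RIPK3, and the RIPK2 to Vector ratio was 0.167 (0.133 to 0.207). SHISA3, of the family of Xenopus Shisa, which holds Frizzled and FGF receptors inside the cell, had 6.76 RPKM in RIPK2, 8.27 in RIPK3, 28.6 in RIPK1, 13.3 in RIPK4, 1.73 in Wnt3a and 31.6 in Vector. Here the Wnt3a library was the lowest and RIPK1 was close to Vector.

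SOX2 had 63.2 RPKM in RIPK2, 68.5 in RIPK3, 133 in RIPK1, 78.1 in RIPK4, 48.1 in Wnt3a and 149 in Vector. Only RIPK1 was near Vector, and all 4 others were well below it. MYCN, a MYC family factor, had 6.85 RPKM in RIPK2, 7.52 in RIPK3, 16.6 in RIPK1, 18.9 in RIPK4, 18.1 in Wnt3a and 16.4 in Vector. For MYCN only RIPK2 and RIPK3 were low. The median of the list was -0.40, or -0.23 with the GC trend removed. TRIM71, a ligase of the undifferentiated state, was above Vector at 55.5 RPKM in RIPK2 and 31.4 RPKM in Vector, and LEFTY1 had 21.3 RPKM in RIPK2 and 13.4 RPKM in Vector.

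Among 20 measured neural progenitor genes 2 were at least 2-fold lower, HES3 and MAP2, where 0.699% of all members were. HES3, a Hes family repressor, had 1.81 RPKM in RIPK2 and 5.74 RPKM in Vector. MAP2, a dendritic microtubule protein, had 2.96 RPKM in RIPK2 and 7.34 RPKM in Vector. MAP2 came to -0.84 with the GC trend removed. The intermediate filament gene NES had 219 RPKM in RIPK2 and 208 RPKM in Vector, and TUBB3 had 25.9 RPKM in RIPK2 and 12.5 RPKM in Vector, so members stood on both sides of Vector.

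A pair of the 23 measured RNA polymerase III genes stood apart from the rest of their list. Both were at least 2-fold lower, where 0.699% of all members were. POLR3G, the polymerase III subunit of undifferentiated cells, had 15.8 RPKM in RIPK2, 20.5 in RIPK3, 40.2 in RIPK1, 24.8 in RIPK4, 14.1 in Wnt3a and 50.2 in Vector. SSB, the La protein that binds new polymerase III transcripts, had 63.8 RPKM in RIPK2, 78.5 in RIPK3, 138 in RIPK1, 81.6 in RIPK4, 69.0 in Wnt3a and 171 in Vector. Both were lowest in RIPK2 or Wnt3a and highest in Vector. The other 21 genes of the list were under 2-fold, and POLR3GL, the subunit that stands in for POLR3G in differentiated cells, had 10.4 RPKM in RIPK2 and 15.4 RPKM in Vector.

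Other genes at the low end were VAT1L, a vesicle amine transport protein homologue, at 78.0 RPKM in RIPK2 and 194 RPKM in Vector, and TBCA, a tubulin folding cofactor, at 18.5 RPKM in RIPK2 and 55.5 RPKM in Vector. LGR4, the receptor for R-spondins, had 22.5 RPKM in RIPK2 and 53.8 RPKM in Vector. EPHA3, an ephrin receptor, had 6.69 RPKM in RIPK2 and 17.4 RPKM in Vector. NDUFA5 was the only 1 of 37 complex I subunits past 2-fold, at 5.0 RPKM in RIPK2 and 13.7 RPKM in Vector. LGR4 came to -0.99, EPHA3 to -0.96 and NDUFA5 to -0.87 with the GC trend removed, all under 2-fold.

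Sterol synthesis genes were lower along most of the pathway, mostly under 2-fold. Of 20 enzymes 19 were below Vector, with a median of -0.38, and 2 were at least 2-fold lower, where 50.9% and 0.699% of all members were so. Neither of the 2 stayed past 2-fold with the GC trend removed, with CYP51A1 at -0.80 and SC5DL at -0.67. CYP51A1, the lanosterol demethylase, had 7.27 RPKM in RIPK2, 8.68 in RIPK3, 13.7 in RIPK1, 12.8 in RIPK4, 9.55 in Wnt3a and 16.3 in Vector. SC5DL, the lathosterol oxidase, had 11.6 RPKM in RIPK2 and 24.3 RPKM in Vector, and HMGCS1, which makes HMG-CoA, had 26.2 RPKM in RIPK2 and 50.9 RPKM in Vector. LSS, the lanosterol synthase, was level at 26.6 RPKM in RIPK2 and 25.7 RPKM in Vector. Fatty acid genes did not follow, with FASN at 69.0 RPKM in RIPK2 and 53.1 RPKM in Vector. RIPK2 was the lowest of the 6 libraries for 22 of the 35 measured genes of the whole list, which also holds genes of lipid uptake and regulation. Their median was -0.30, and -0.32 with the GC trend removed.

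Proliferation genes were mostly below Vector by small amounts, where 50.9% of all members were below it. Of 30 mitosis genes 26 were below Vector with a median of -0.35, and of 28 S phase genes 22 were below it with a median of -0.30. With the GC trend removed the medians were -0.21 and -0.20. MZT1, a subunit of the gamma-tubulin complex, was the only 1 past 2-fold, at 10.9 RPKM in RIPK2 and 25.4 RPKM in Vector, and came to -0.69 with the GC trend removed. The cyclin-dependent kinase CDK1 had 21.2 RPKM in RIPK2 and 36.4 RPKM in Vector, while the proliferation marker MKI67 had 25.5 and 24.4 RPKM in RIPK2 and Vector, and MCM5 had 55.3 and 38.8 RPKM in RIPK2 and Vector.

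Several lists lay near the middle of all members. Wnt target genes had a median of 0.10, with AXIN2 at 14.1 RPKM in RIPK2 and 14.7 RPKM in Vector. Of the 19 measured, 1 was at least 2-fold higher and 1 lower, beside 1.59% and 0.699% of all members. They were MSX1, at 17.4 RPKM in RIPK2 and 5.90 RPKM in Vector, and SHISA3, described above. Cytosolic ribosomal proteins had a median of -0.0075 over 74 genes, and genes of hypoxia and glycolysis had a median of 0.07. Heat shock genes had a median of -0.20, or -0.0996 with the GC trend removed, with HSPE1 lowest at 73.4 RPKM in RIPK2 and 126 RPKM in Vector. In all, 32 lists were examined.

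Markers of other cell types differed as well. In bulk RNA a different number of cells of a type and a different amount of RNA per cell cannot be told apart. Of 20 endothelial markers 11 passed the filter, 3 were at least 2-fold higher where 1.59% of all members were, and the summed level was 149 RPKM in RIPK2 and 98.4 RPKM in Vector, with 4 of the 20 at 0 in both. The 3 were ESAM, ENG and TIE1, of which only ESAM stayed past 2-fold with the GC trend removed, at 1.19, and TIE1 came to 0.79. CDH5 had 10.9 RPKM in RIPK2 and 5.40 RPKM in Vector. PECAM1 had 27.7 RPKM in RIPK2 and 29.2 RPKM in Vector. The fibroblast list summed to 2856 RPKM in RIPK2 and 2259 RPKM in Vector, most of it from VIM, and overlaps with the matrix list. The haematopoietic list summed to 12.4 RPKM in RIPK2 and 8.04 RPKM in Vector with 2 of 14 genes past the filter, and the trophoblast and extraembryonic endoderm list to 13.2 RPKM in RIPK2 and 17.5 RPKM in Vector with 5 of 14 at 0 in both. The part of these cell types in the results above was not tested.

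Gene families assembled after the values were seen gave further detail. Of 10 measured S100 calcium-binding proteins 3 were at least 2-fold higher, led by S100A16 at 145 RPKM in RIPK2 and 41.1 RPKM in Vector and S100A3 at 13.1 RPKM in RIPK2 and 3.22 RPKM in Vector, and 1 was lower. Of 11 fibroblast growth factors and receptors 1 was past 2-fold on each side, FGFRL1 at 21.6 RPKM in RIPK2 and 5.31 RPKM in Vector and FGFR2 at 9.85 RPKM in RIPK2 and 22.1 RPKM in Vector. Among 10 high mobility group proteins HMGA2 was higher, at 86.5 RPKM in RIPK2 and 38.6 RPKM in Vector, and HMGN3 and HMGN5 were at least 2-fold lower but came to -0.83 and -0.68 with the GC trend removed. Of 397 zinc finger ZNF genes none was past 2-fold in either direction. The box C/D small nucleolar RNAs lay on both sides, with 10 of 119 higher and 15 lower, many on few reads, such as SNORD35A with 34 reads in RIPK2 and 7 in Vector.

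A group of pseudogenes was higher in RIPK2 than in Vector. Of 56 pairs of a pseudogene and its parent gene matched by symbol, 13 copies were at least 2-fold higher, 0 were lower, and none of the parents was past 2-fold. The shares over all members were 1.59% higher and 0.699% lower. The median difference was 0.16 for the copies and -0.03 for the parents, 36 copies lay above their parent and 20 below, and no copy had a difference between 0.82 and 1.51. ANXA2P2, a copy of annexin A2, had 22.1 RPKM in RIPK2, 9.33 in RIPK3, 6.70 in RIPK1, 5.30 in RIPK4, 4.66 in Wnt3a and 2.88 in Vector. The RIPK2 library was the highest and Vector the lowest. Over the 13 copies the median RPKM was 7.81 in RIPK2, 3.20 in RIPK3, 3.41 in RIPK1, 2.78 in RIPK4, 2.71 in Wnt3a and 1.26 in Vector. The 13 were chosen for being higher in RIPK2 than in Vector, which favours a high RIPK2 and a low Vector median.

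Some protein-coding genes of the largest differences are retrocopies of the same kind. They include NACA2 with 8.21 RPKM in RIPK2 and 0.904 RPKM in Vector, GLUD2 with 6.91 RPKM in RIPK2 and 0.895 RPKM in Vector, H3F3C with 5.75 RPKM in RIPK2 and 0.824 RPKM in Vector, and PABPC3 and CSNK2A1P. They were noticed because they were higher, so they are named and not counted. EDARADD, an adaptor of the ectodysplasin receptor, had 16.9 RPKM in RIPK2, 7.68 in RIPK3, 7.68 in RIPK1, 5.28 in RIPK4, 4.04 in Wnt3a and 2.09 in Vector. The exons annotated for it overlap the pseudogene ENO1P1 on the same strand. All of these share sequence with an abundant parent, so their values are uncertain. Why the copies differ between libraries was not tested.

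**Figure D5:**
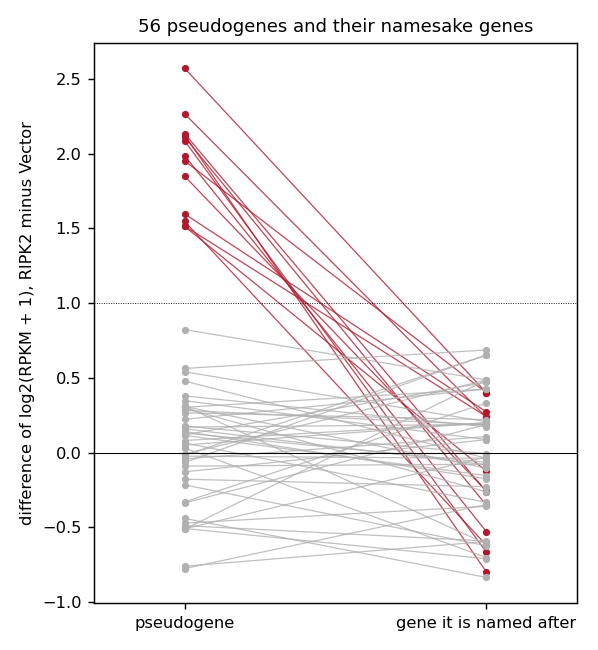
Each line joins a pseudogene (left) and the parent gene matched by symbol (right), placed by their differences of log2(RPKM + 1), RIPK2 minus Vector. The 13 copies at least 2-fold higher lie above 1.51, the other copies lie at or under 0.82, and no parent is past 1 in either direction.

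The RIPK3 library was the most like RIPK2, and this comparison does not use the Vector library. Of 11879 genes, with both transfected genes left out, 38 were at least 2-fold higher in RIPK2 than in RIPK3, or 0.32%, and 4 were lower, or 0.0337%. The median absolute difference on the log2 scale was 0.108 to RIPK3, 0.157 to RIPK4, 0.190 to Wnt3a, 0.280 to Vector and 0.291 to RIPK1. Only 5 protein-coding genes separated RIPK2 and RIPK3 by 2-fold. BSX, a homeobox factor, had 4.44 RPKM in RIPK2, 1.12 in RIPK3, 1.83 in RIPK1, 0.545 in RIPK4, 0.847 in Wnt3a and 0.165 in Vector, the last on 2 reads. It passed the filter on level through the RIPK2 library, since its mean without that library was 0.901 RPKM. The others higher in RIPK2 were EDARADD, CSNK2A1P and PABPC3, and GH1 was lower. GH1 was listed at 0 RPKM in both RIPK2 and Vector, so it passed the filter on level through other libraries. Of the remaining genes higher in RIPK2, 11 were pseudogenes, 22 were small RNAs and 1 was another RNA.

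Against RIPK4, RIPK2 had 128 genes at least 2-fold higher (1.08%) and 54 lower (0.455%). Against RIPK1 the counts were 325 higher (2.74%) and 71 lower (0.598%), and against Wnt3a, which differs in agent and in time, they were 192 higher (1.62%) and 90 lower (0.758%). Of the 189 genes at least 2-fold above Vector, RIPK2 was the highest of the 6 libraries in 114, and of the 83 at least 2-fold below Vector it was the lowest in 48. Genes chosen for a high or low RIPK2 value favour such counts.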

How the data were processed

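RNA of 6 PA-1 libraries was sequenced, 1 per group. RPKM values per gene were deposited by the authors to 5 significant digits. GSNAP, DESeq and the build hg19 appear in the submitters' processing notes. Their versions and roles, and the counting rule, are not stated in what was used here. Groups came from the labelled transfection. The members and all lists, families and copies were chosen with earlier results of these data known.

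Read totals and reads per gene were recovered from the steps between RPKM values, with whole-number lengths of 15 to 30000 bases and the solution nearest the longest GENCODE release 29 transcript. This gave reads for 18079 genes (88.2%) and 11869 of the 11881 kept. At high counts several lengths can qualify by chance, so reads and intervals there are approximate. A rule against multiples of the length was added after a first result for OASL. Gene classes came from RefSeq, matched for 20382 genes and unmatched for 112.

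Counts past 2-fold, list medians and ratios used Python 3.11.15, numpy 2.4.6, pandas 2.3.3, scipy 1.17.1 and matplotlib 3.10.9, and the calculation was tested on simulated data. With 1 library per group no significance test was made. The genes named were RIPK1 to RIPK4, the NOD list, the 20 largest differences each way without small RNAs, unnamed transcripts and pseudogenes, up to 6 members of each other list, 5 each way against RIPK3, and the cell type markers. Small Cajal body RNAs were classed as small RNAs after the first naming. Other names were chosen after their values were seen. A few genes that the rule names are not reported here. Alternatives were the pseudocount, the level filter, library scaling, GC trend removal by a running median over 501 genes, and protein-coding genes alone.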

Additional observations from a re-analysis of the deposited data

How the results depend on the processing

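No paired analysis was possible because each group holds 1 library, and no library could be left out. The 189 higher and 83 lower genes became 346 and 145 with a pseudocount of 0.1, 116 and 53 with the GC trend removed, and the higher count became 102 at a mean RPKM of at least 5. The 42 genes apart between RIPK2 and RIPK3 became 86 with a pseudocount of 0.1, 11 at a mean RPKM of at least 5 and 5 among protein-coding genes. List medians changed sign to -0.034 for the NOD pathway and 0.073 for neural progenitors at a mean RPKM of at least 5, to -0.037 for YAP and SRF targets, -0.093 for Wnt targets and -0.028 for RNA polymerase III with the GC trend removed, and to 0.026 for secretory granule genes and 0.0053 for trophoblast markers without a filter on level. Other medians that moved by more than 0.5 of the interquartile range of their members, a tolerance chosen after the data were seen, were NF-kB targets at 0.28 without a filter and 0.35 with the GC trend removed, integrins at 0.20, IGF binding proteins at 0.58 and endothelial markers at 0.22 without a filter, and fibroblast markers at 0.28 with the GC trend removed. The cause was not tested, except that a filter or class changes which genes are counted. Of 74 named genes past 2-fold, 53 stayed so with the GC trend removed, and with the pseudocount of 0.1, no filter, median-of-ratios scaling or protein-coding genes alone all 74 did. Depth limits the genes of few reads, where 3 reads over 2 kb came to 0.0778 RPKM in RIPK2 and 0.0870 RPKM in Vector.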

Other observations

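Some genes outside the groups above also differed, and were noticed after their values were seen. SPP1, which encodes osteopontin, a secreted matrix phosphoprotein, had 1410 RPKM in RIPK2 and 617 RPKM in Vector. PLXND1, a semaphorin receptor, had 71.0 RPKM in RIPK2, 61.8 in RIPK3, 27.6 in RIPK1, 48.5 in RIPK4, 51.0 in Wnt3a and 32.3 in Vector, and its difference was 0.75 on the log2 scale with the GC trend removed. COL8A1, a short-chain collagen of the subendothelium, had 3.14 RPKM in RIPK2, 3.39 in RIPK3, 0.450 in RIPK1, 0.751 in RIPK4, 0.600 in Wnt3a and 0.509 in Vector, and COL27A1, a fibrillar collagen of cartilage, had 11.4 RPKM in RIPK2 and 3.68 RPKM in Vector. LAMA4, a laminin chain of vessels and muscle, had 24.0 RPKM in RIPK2 and 10.8 RPKM in Vector. PARP10, an interferon-inducible mono-ADP-ribosyltransferase, had 37.8 RPKM in RIPK2, 36.1 in RIPK3, 4.10 in RIPK1, 20.5 in RIPK4, 9.79 in Wnt3a and 13.5 in Vector. RIPK2 and RIPK3 lay together at the high end for PLXND1, COL8A1 and PARP10.

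INHBA, the activin A subunit, did not pass the filter on level and had 1.99 RPKM in RIPK2, 2.45 in RIPK3, 0.0453 in RIPK1, 0.0482 in RIPK4, 0 in Wnt3a and 0.0512 in Vector, from 87 reads in RIPK2 and 2 in Vector.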
